A study of Mus musculus and Rattus norvegicus with 26 samples.

Results

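Intronic reads of 6 genes were followed through 6 lists of CIRTs (cytoplasmic intron-sequence retaining transcripts): the atlastins Atl1, Atl2 and Atl3, the spastin gene Spast, the paraplegin gene Spg7 and the spatacsin gene Spg11. The genes were found by their symbol, and the reads of an intron were taken 1 time for each transcript and intron. Each of the 6 was listed in at least 1 list, out of 12467 genes in the 4 mouse lists and 5712 genes in the 2 rat lists. Each list pools the libraries of a condition, and the numbers of libraries below are those of the labels. The labels tie each library to a list, while the study's text describes fewer BAT cells and cardiomyocytes. The mouse neuron lists came from 3 dendrite and 3 soma libraries of C57BL/6 hippocampal neurons taken at embryonic day 18, and the rat lists from 2 dendrite and 3 soma libraries of Sprague-Dawley hippocampal neurons of the same age. Per the study's methods, the neurons of both species were then grown in primary culture, so the age is that at dissection and not at harvest. The dendrites of a library were cut from the cells by hand and pooled, so they hold no nucleus, whereas the somas do. Single cells of interscapular brown adipose tissue (BAT) of CD-1 mice at embryonic day 17.5, plated before harvest, gave 6 libraries. Cardiomyocytes at embryonic day 14.5 gave 9 libraries. The cardiomyocytes came from transgenic C57BL/6 embryos that carry 1 copy of the Fucci cell cycle probe mAG-hGem (1/110) under the CMV promoter, which is active in most cell types, and were sorted by flow cytometry. All libraries went through 3 rounds of aRNA amplification, a linear amplification that starts from poly(T) primers.

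Mutations in Atl1, Spast, Spg7 and Spg11 are known from hereditary spastic paraplegia, in which the long axons of the corticospinal tract degenerate. Atl2 and Atl3 are relatives of Atl1. Atlastins are membrane GTPases that fuse tubules of the endoplasmic reticulum, with Atl1 the form best known from neurons. Spastin is an AAA ATPase that cuts microtubules and works together with atlastin, paraplegin is a subunit of a protease of the inner mitochondrial membrane, and spatacsin takes part in the reformation of lysosomes.

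The values are sums over pooled libraries. They have no replicate error, no library could be looked at alone, and no difference between lists was tested. Levels are given as reads per 1000000 intronic reads of a list (RPM) with 95% exact Poisson intervals, and folds with 95% exact binomial intervals. All intervals cover counting error only, since amplified reads are not independent molecules. The lists hold between 1007530 reads (rat dendrites) and 17858440 reads (mouse BAT cells), so 8 reads in a list mean different levels in different lists. A gene that is not listed may still have had reads that were filtered out, so it is not taken as 0. In bulk and pooled samples, fewer cells of a type and less RNA per cell cannot be told apart.

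The lists carried the markers of their labelled cells, measured as intronic reads of marker genes. Of 10 neuronal markers, 8 were listed in mouse dendrites (summed level 1284 RPM), 9 in mouse somas (8673), 4 in rat dendrites (1649) and 7 in rat somas (8807). Of 10 brown adipocyte markers, 9 were listed in BAT cells (8799 RPM), Ucp1 among them, and 4 in cardiomyocytes (290 RPM). Of 10 cardiomyocyte markers, 7 were listed in cardiomyocytes (27393 RPM), but Nkx2-5 was not. Markers of other cell types were also listed, which does not by itself show that such cells were present. BAT cells held 6 cardiomyocyte markers (2780 RPM, of which 1501 RPM were Nkx2-5) and 7 neuronal markers (1041 RPM), and cardiomyocytes held 4 neuronal markers (387 RPM). In the neuronal lists the brown adipocyte markers were at 1.08 to 221 RPM and the cardiomyocyte markers at 10.2 to 519 RPM. Astrocyte markers reached 966 RPM in mouse dendrites, nearly all in Aldh1l1 (916 RPM), and microglial markers reached 275 RPM in mouse and 696 RPM in rat dendrites, nearly all in Itgam. The endothelial markers ranged from 2.86 RPM in rat somas to 733 in mouse somas, the fibroblast markers were at most 319 RPM (rat dendrites) and the oligodendrocyte markers at most 138 RPM (rat dendrites). Whether other cell types had a part in the values of the 6 genes was not tested.

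In the mouse, the contigs (stretches of intron covered by reads) of these genes had a median length of 282.5 nt, and several of them ended at a run of adenines or were found at the same place in more than 1 list. The sequences of 7 such stretches are shown, each from an intron where contigs of different lists overlapped. All are from NCBIM37 (mm9), are printed 5′ to 3′ on the strand of the gene and lie in introns of the annotated coding transcript. The capitals mark the adenine tract in the 5 sequences below. The upstream stretch of Atl3 intron 1 (chr19:7569862-7570011, + strand) held the contig ends of dendrites, somas and BAT cells, and the downstream stretch of the same intron (chr19:7571533-7571663, + strand) those of BAT cells and cardiomyocytes. The stretch of Atl2 intron 3 (chr17:80261477-80261605, − strand) held the contig ends of somas and BAT cells. The stretch of Spast intron 13 (chr17:74774828-74775005, + strand) is the cardiomyocyte contig with the bases that follow it, and that of Spg7 intron 13 (chr8:125616174-125616390, + strand) is the whole BAT contig.
Atl3 intron 1 upstream: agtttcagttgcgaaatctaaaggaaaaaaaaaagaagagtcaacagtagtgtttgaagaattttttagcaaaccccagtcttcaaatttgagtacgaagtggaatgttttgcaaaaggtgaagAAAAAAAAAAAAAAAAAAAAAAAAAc
Atl3 intron 1 downstream: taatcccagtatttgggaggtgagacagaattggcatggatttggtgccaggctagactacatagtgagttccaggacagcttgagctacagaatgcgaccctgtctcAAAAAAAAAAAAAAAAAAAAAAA
Atl2 intron 3: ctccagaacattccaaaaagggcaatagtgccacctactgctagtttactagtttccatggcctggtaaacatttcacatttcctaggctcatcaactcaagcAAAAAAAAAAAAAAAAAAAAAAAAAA
Spast intron 13: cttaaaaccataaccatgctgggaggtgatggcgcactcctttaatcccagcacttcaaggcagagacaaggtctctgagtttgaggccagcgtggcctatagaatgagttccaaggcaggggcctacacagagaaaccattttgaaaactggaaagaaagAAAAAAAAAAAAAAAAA
Spg7 intron 13: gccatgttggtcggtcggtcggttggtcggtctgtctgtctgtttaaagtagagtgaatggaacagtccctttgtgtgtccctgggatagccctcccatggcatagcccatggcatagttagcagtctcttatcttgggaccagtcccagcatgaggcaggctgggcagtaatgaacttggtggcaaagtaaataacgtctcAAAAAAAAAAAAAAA

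The 203 nt of Atl3 intron 4 that dendrites, somas and BAT cells shared (chr19:7591762-7591964, + strand) are shown with the word TTTAATCCC, read on the opposite strand, in capitals. The word belongs to the B1 family of short interspersed repeats. The last sequence is the part of the dendrite contig in Spg11 intron 35 (chr2:121882335-121882448, − strand) that lies beyond the annotated end of the neighbouring gene Eif3j, and its capitals mark the 22 nt that the soma contig also held.
Atl3 intron 4: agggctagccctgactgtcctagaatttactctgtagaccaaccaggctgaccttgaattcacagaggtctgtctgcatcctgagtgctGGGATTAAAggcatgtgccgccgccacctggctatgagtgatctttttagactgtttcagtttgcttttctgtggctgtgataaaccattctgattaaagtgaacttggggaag
Spg11 intron 35: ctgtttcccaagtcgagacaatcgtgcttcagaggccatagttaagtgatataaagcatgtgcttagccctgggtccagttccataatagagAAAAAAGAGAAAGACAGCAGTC

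All 6 genes were listed in mouse dendrites, mouse somas and BAT cells, where 69.0%, 47.3% and 82.0% of the genes of the 4 mouse lists were listed. Only Atl2 was missing from cardiomyocytes, which listed 49.8% of these genes. Atl1, Atl3, Spast, Spg7 and Spg11 were therefore in all 4 mouse lists, as were 24.6% of all mouse genes. In rat dendrites 5 of the 6 were listed, all but Spast (78.5% of the genes of the rat lists), and in rat somas 3 of the 6, namely Spast, Spg7 and Spg11 (59.4%). The atlastins were thus listed in rat dendrites and not in rat somas. Of the 5712 genes of the rat lists, 4485 were listed in dendrites and only 2166 in both lists. Listing in dendrites alone was therefore common among all genes.

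**Figure D1:**
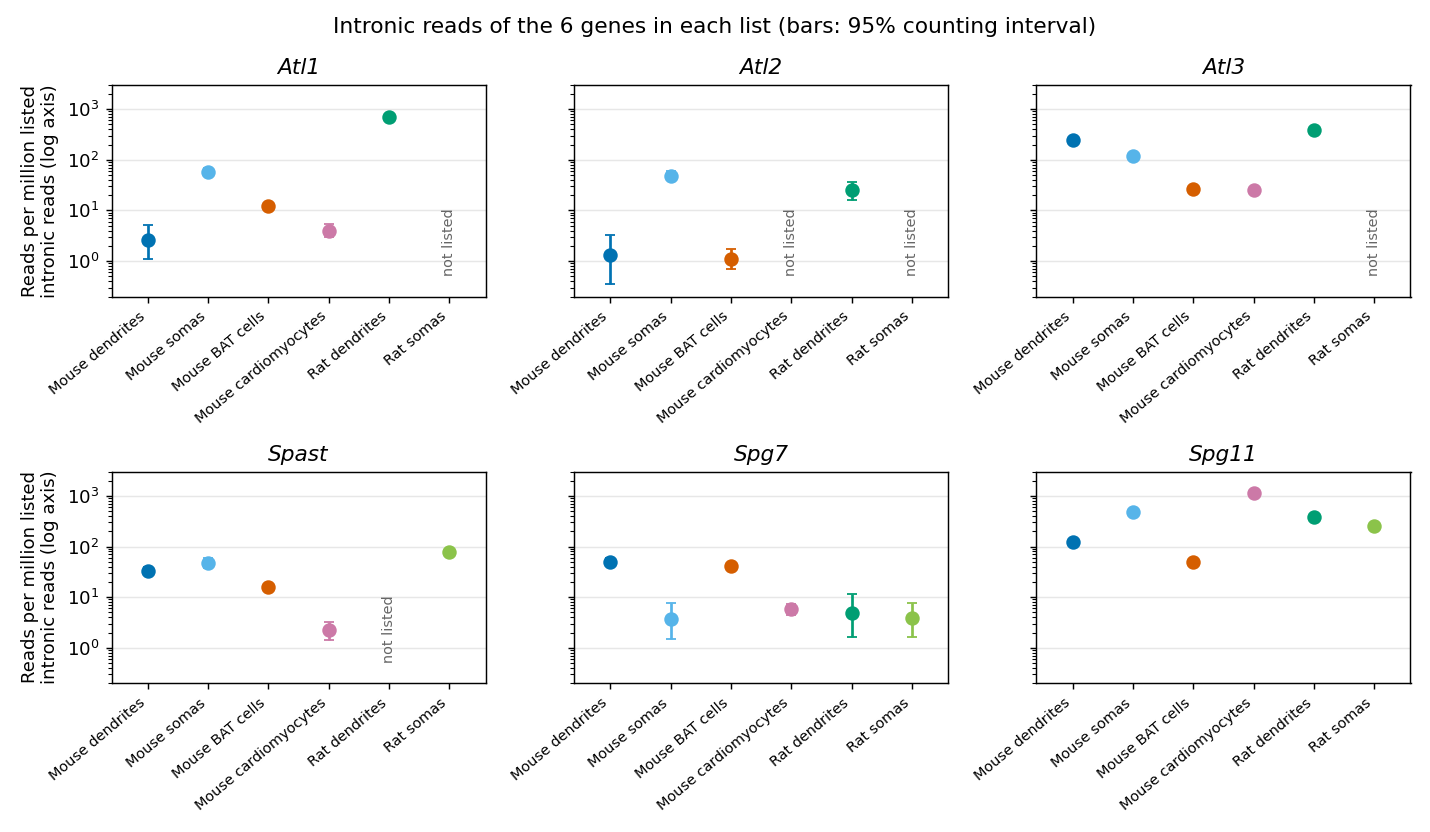
RPM (log axis) of each gene in the 6 lists, with bars for the 95% exact Poisson interval of the count; each point is 1 pooled list. Atl3 was highest among the mouse lists in dendrites (249 RPM), and Atl1, Atl2 and Spast in somas. Spg11 was highest in cardiomyocytes (1143 RPM), but outside the introns crossed by the exon of another gene, Eif3j, it was highest in somas (262 RPM).

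High introns, with reads of at least 8 on the log2 scale, were found in 2 of the 6 genes in mouse dendrites, Atl3 and Spg11 (23.5% of all listed genes had such an intron), in Spg11 alone in mouse somas (18.7%), in Spg7 and Spg11 in BAT cells (40.2%) and in Atl3 and Spg11 in cardiomyocytes (42.9%). In rat dendrites 3 of the 6 had one, Atl1, Atl3 and Spg11 (15.8%), and in rat somas Spg11 alone (30.4%). The study itself names Atl1 among the rat dendrite genes with such an intron, so its place in this count was already known. Spg11 was the gene that held such an intron in every list. In mouse dendrites and cardiomyocytes this was intron 35 alone, which an exon of the gene Eif3j crosses, and the other introns of Spg11 had at most 40 and 6 reads there. With contigs of at most 400 nt in whole cells, Spg11 had no such intron in BAT cells and cardiomyocytes.

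Atl1 (NM_178628, chromosome 12, 70994092 to 71065072, + strand) gave 8 reads in mouse dendrites (2.59 RPM, interval 1.12 to 5.11), 106 in mouse somas (57.1 RPM, 46.8 to 69.1), 223 in BAT cells (12.5 RPM, 10.9 to 14.2) and 49 in cardiomyocytes (4.02 RPM, 2.97 to 5.31). Somas were highest and BAT cells next, while the intervals of cardiomyocytes and dendrites overlapped. The soma reads were spread over 4 introns, with 55 reads in intron 9 and 40 in intron 7. Intron 5 held all 8 dendrite reads and 4 of the soma reads, and the contigs of the 2 lists lay apart. Intron 14, the last one, held 203 of the BAT reads and 7 of the soma reads, and there the contigs shared 204 nt. In intron 9 the soma and cardiomyocyte contigs shared 177 nt, which is the whole cardiomyocyte contig, while the BAT contig (20 reads) lay upstream of both. In the rat, 711 of the 714 dendrite reads were in intron 10 (chromosome 6, 92068433 to 92069405 of rn4), more than in 96.5% of the introns of that list, and the other 3 in intron 14.

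Atl2 (NM_178050, chromosome 17, 80248659 to 80295391, − strand), a form found in many tissues, had the fewest reads of the atlastins in each list that held it. It gave 4 reads in mouse dendrites (1.30 RPM, 0.353 to 3.32), 90 in mouse somas (48.5 RPM, 39.0 to 59.6) and 20 in BAT cells (1.12 RPM, 0.684 to 1.73). The soma level stood above the other mouse levels, which overlapped. Intron 6 held 47 soma reads and the 4 dendrite reads in contigs that did not overlap. Intron 3 held 43 soma and 20 BAT reads, and these contigs shared 539 nt of the 547 nt in the BAT contig. They also ended within 8 nt of each other: the soma contig ended 3 nt before the tract of 26 adenines shown above, and the BAT contig 5 nt into it. In rat dendrites Atl2 gave 25 reads (24.8 RPM, 16.1 to 36.6) over introns 2, 4 and 7.

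Atl3 (NM_146091, chromosome 19, 7568928 to 7613098, + strand) was the atlastin with the most reads in each mouse list. It gave 768 reads in mouse dendrites (249 RPM, 232 to 267), 220 in mouse somas (119 RPM, 103 to 135), 463 in BAT cells (25.9 RPM, 23.6 to 28.4) and 313 in cardiomyocytes (25.7 RPM, 22.9 to 28.7). Dendrites were above somas, and BAT cells and cardiomyocytes did not differ beyond their intervals. Per kb of annotated intron the Atl3 level in dendrites was 6.58 RPM, against 0.0380 for Atl1 and 0.0296 for Atl2, and in somas 3.14 against 0.838 and 1.11. The reads came from 3 of its 12 introns. Intron 1, of 14686 nt, was listed in all 4 mouse lists with 386 reads in dendrites, 218 in somas, 165 in BAT cells and 313 in cardiomyocytes.

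Within Atl3 intron 1 the lists fell on a pair of places. In dendrites, somas and BAT cells a contig ended at positions 7570009, 7570002 and 7570011 of chromosome 19, so 24, 17 and all 25 adenines of the upstream tract were inside the contig. The starts of these contigs were spread more widely, at 7569479, 7569604 and 7569708, and the contigs shared up to 399 nt. A further BAT contig ended 8 nt before the downstream tract of 23 adenines, and a cardiomyocyte contig ended 19 nt into it. The remaining contigs of the intron, 1 of dendrites and 1 of cardiomyocytes, were each in a single list. Intron 4 held 380 reads in dendrites, 74 in BAT cells and 2 in somas. Its dendrite contig was 1066 nt long, while the BAT and soma contigs ended at the same base (7591964), which lies inside it. Intron 8 had 224 reads in BAT cells and 2 in dendrites, at different places. In rat dendrites all 398 reads of Atl3 (395 RPM, 357 to 436) were in intron 5.

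**Figure D2:**
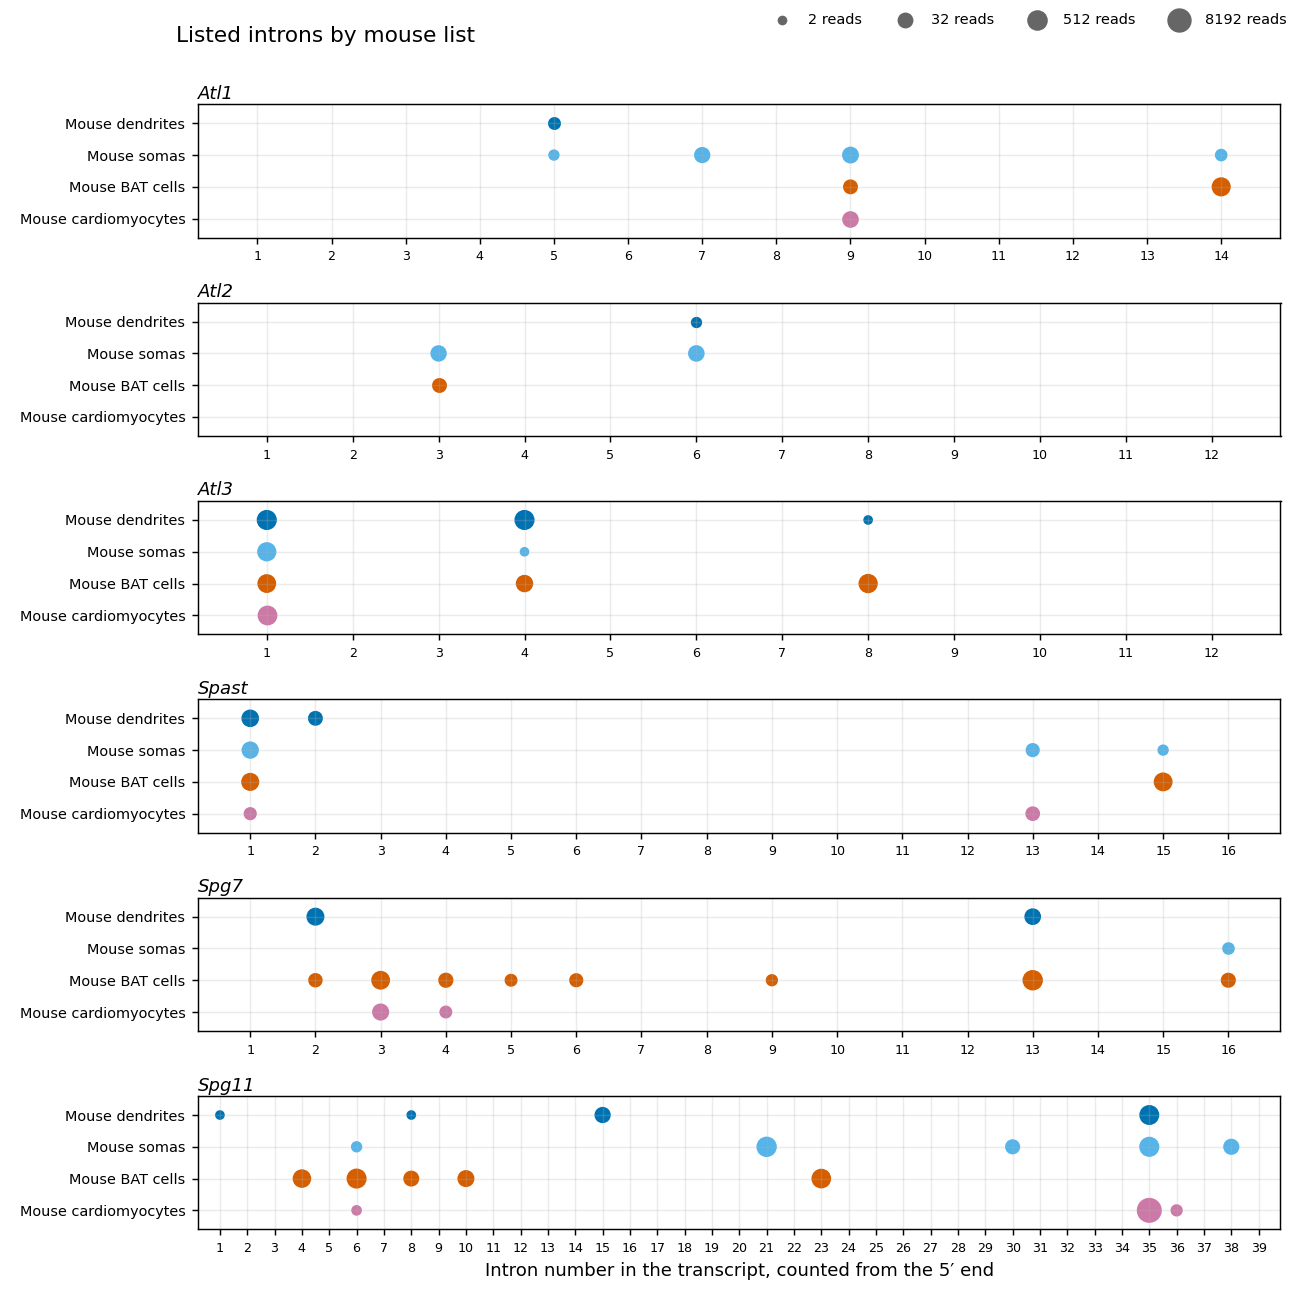
Introns of the 6 genes with listed reads in the 4 mouse lists, by intron number from the 5′ end; the area of a dot grows with log2 of the reads of the intron. Atl3 used introns 1, 4 and 8, and Spast intron 1 was listed in all 4 lists, while of the 5 Spg11 introns listed in BAT cells only introns 6 and 8 were in another list.

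Spast (NM_016962, chromosome 17, 74738327 to 74790453, + strand) gave 102 reads in mouse dendrites (33.05 RPM, 26.9 to 40.1), 89 in mouse somas (48.0 RPM, 38.5 to 59.0), 283 in BAT cells (15.8 RPM, 14.1 to 17.8) and 27 in cardiomyocytes (2.21 RPM, 1.46 to 3.22). The neuronal lists lay next to each other at the top, with intervals that just overlapped, and cardiomyocytes were lowest. Intron 1, of 12504 nt, was listed in all 4 with 82, 71, 109 and 9 reads. Despite this no base of it was shared between lists, its 7 contigs lying between 965 nt from the 5′ end of the intron (dendrites) and 1180 nt from its 3′ end (BAT cells). Intron 13 held 14 soma and 18 cardiomyocyte reads, and the cardiomyocyte contig of 150 nt lay wholly inside the soma contig. Their ends were 10 and 11 nt before a tract of 17 adenines. Intron 15 held 174 BAT and 4 soma reads at different places, and intron 2 held 20 dendrite reads. In the rat, Spast was listed in somas with 162 reads in intron 1 (77.3 RPM, 65.9 to 90.2).

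Spg7 (NM_153176, chromosome 8, 125589181 to 125621549, + strand) had 8 of its 16 introns listed in the mouse (50%, against a median of 33.3% per gene), and all 8 were listed in BAT cells. It gave 153 reads in mouse dendrites (49.6 RPM, 42.0 to 58.1), 7 in mouse somas (3.77 RPM, 1.52 to 7.77), 730 in BAT cells (40.9 RPM, 38.0 to 44.0) and 71 in cardiomyocytes (5.82 RPM, 4.54 to 7.34). Dendrites and BAT cells formed the upper pair and cardiomyocytes and somas the lower pair, with overlapping intervals inside each pair. Intron 13 carried 474 of the BAT reads, in a contig of 217 nt that ended 15 nt into a tract of 16 adenines. The same stretch lay inside the dendrite contig of 574 nt (50 reads), which ended 17 nt before another tract of 11 adenines. Intron 2 held 103 dendrite and 16 BAT reads, intron 3 held 167 BAT and 63 cardiomyocyte reads, and intron 16 held 22 BAT and 7 soma reads, in each case without a shared base. In intron 4 the contig of cardiomyocytes (187 nt, 8 reads) lay inside that of BAT cells (23 reads in the intron). In the rat, Spg7 had 5 reads in dendrites (4.96 RPM, 1.61 to 11.6) and 8 in somas (3.82 RPM, 1.65 to 7.53), which overlap.

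Spg11 (NM_145531, chromosome 2, 121879256 to 121944122, − strand) had more reads than the other 5 genes in mouse somas, BAT cells, cardiomyocytes and rat somas. It gave 385 reads in mouse dendrites (125 RPM, 113 to 138), 906 in mouse somas (488 RPM, 457 to 521), 885 in BAT cells (49.6 RPM, 46.3 to 52.9) and 13942 in cardiomyocytes (1143 RPM, 1124 to 1162). No 2 of these intervals overlapped. In cardiomyocytes 13933 of the reads were in intron 35, which ranked 112 among the 13056 introns of the list. Intron 35 also held 341 of the 385 dendrite reads and 382 of the soma reads, whereas it was not listed in BAT cells. BAT reads were in introns 4, 6, 8, 10 and 23, with 364 in intron 6 and 286 in intron 23. Somas had a further 460 reads in intron 21, in 2 contigs.

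Spg11 intron 35 lies where a second gene is annotated on the other strand. The last exon of Eif3j, which encodes a subunit of a translation initiation factor, runs from 121877703 to 121882334 of chromosome 2 on the + strand and thereby crosses introns 35 to 39 of Spg11. Eif3j was looked at after the values had been seen. In dendrites, somas and cardiomyocytes a contig of intron 35 lay exactly at the 3′ end of the intron, position 121881971, and 364 nt of it lay in the Eif3j exon. This soma contig ended 22 nt beyond the annotated end of Eif3j (121882356), the dendrite contig 114 nt beyond it (121882448), and the cardiomyocyte contig of 1165 nt continued to 121883135. Somas had a further contig in intron 35, of 242 nt, which lay 1087 nt from the 3′ end of the intron and outside the exon. The 382 soma reads are given for the whole intron and cannot be split between the contigs. The contigs of intron 36 (cardiomyocytes, 6 reads) and intron 38 (somas, 38 reads) were wholly inside the exon. The sequencing was not strand specific, so reads of Spg11 introns and of the Eif3j exon cannot be told apart here. Of all contigs of the 6 genes, 5 of 72 touched an exon of another gene, all 5 being these, against 1.29% of the contigs of the 4 mouse lists. All contigs of Spg7 lay within the bounds of another annotated gene, Gm20388, but touched none of its exons.

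The introns of Spg11 that Eif3j crosses held 99.98% of the Spg11 reads in cardiomyocytes, 88.6% in dendrites, 46.4% in somas and none in BAT cells. Without these introns Spg11 had 44 reads in dendrites (14.3 RPM), 486 in somas (262 RPM), 885 in BAT cells (49.6 RPM) and 3 in cardiomyocytes (0.246 RPM). The order of the lists thus changed, cardiomyocytes moving from the highest to the lowest. The 3 cardiomyocyte reads were in intron 6, in a contig that touches exons of 2 other Spg11 transcripts. Elsewhere the contigs of somas (4 reads, 188 nt) and BAT cells overlapped in intron 6, and those of dendrites (2 reads, 185 nt) and BAT cells (34 reads) in intron 8, where they began at the same base.

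**Figure D3:**
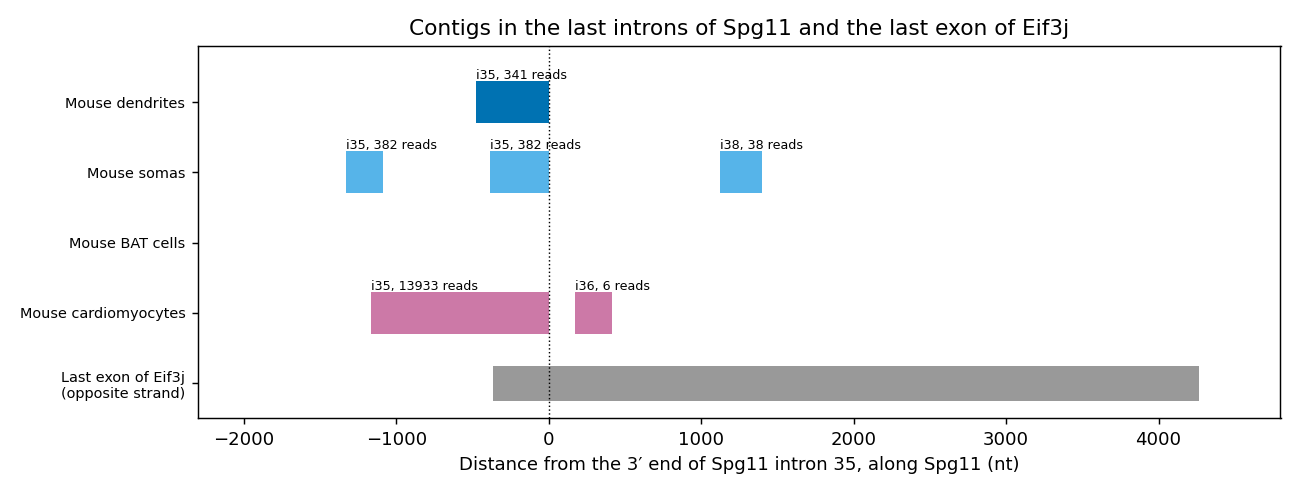
Contigs in introns 35 to 39 of Spg11 in the 4 mouse lists against the last exon of Eif3j (grey), as the distance in nt from the 3′ end of Spg11 intron 35; each label gives the intron and the reads of the whole intron. A contig each of dendrites, somas and cardiomyocytes reaches the end of the intron, inside the exon, while a further soma contig lies outside the exon and none was listed in BAT cells.

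In the rat, Spg11 gave 384 reads in dendrites (381 RPM, 344 to 421) and 522 in somas (249 RPM, 228 to 272). All soma reads and 102 of the dendrite reads were in intron 37, where the contigs had the same bounds in both lists (chromosome 3, 108839317 to 108839573 of rn4, 257 nt). Such equal bounds were found for 9.95% of the introns that the rat lists shared. The remaining dendrite reads were mostly in intron 3 (274 reads). Which rat genes neighbour this site was not analysed here. The other intron that both rat lists held was Spg7 intron 10, with 2 reads in dendrites and 6 in somas, and the dendrite contig of 243 nt lay wholly inside the soma contig.

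The question which genes hold more intronic sequence in dendrites than in somas was addressed by the fold of RPM for genes listed in both. In the mouse, 2 of the 6 genes were at least 2-fold higher in dendrites, Spg7 (13.1-fold, log2 3.72, interval 2.64 to 5.05) and Atl3 (2.10-fold, log2 1.07, 0.85 to 1.29). At least 2-fold lower were 3 genes, Atl2 (log2 -5.23, -7.13 to -3.82), Atl1 (log2 -4.46, -5.71 to -3.43) and Spg11 (log2 -1.97, -2.14 to -1.80). Spast lay between them (log2 -0.54, -0.96 to -0.11). Of all 4739 genes listed in both, 42.7% were at least 2-fold higher and 35.5% at least 2-fold lower, and the median was 0.27 on the log2 scale. A 2-fold difference was therefore the common case among all genes. Against all genes, the log2 fold of Spg7 was above that of 79.3% and the log2 fold of Atl2 above that of 7.0%.

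The Atl3 fold depended on how reads were scaled and counted. On the log2 scale it was 0.80 relative to the median of all genes, under 2-fold, but 1.55 per read of the libraries and 1.66 with reads counted on every contig. Keeping only the introns that had a contig of at most 400 nt leaves out the 380 dendrite reads of intron 4 and also changes the totals of both lists. The log2 fold was then -0.17. The same choice moved Spast to 1.52, without the 71 soma reads of intron 1. It left no dendrite intron of Spg7, whose contigs there were 1028 and 574 nt long, so the Spg7 fold could not be computed. Neither of the genes reported as higher thus kept its place. The study sets the 400 nt limit for whole cells only, whereas for these folds it was applied to dendrites too. Spg11 stayed lower in dendrites, at a log2 fold of -2.91 with reads counted on every contig and -4.20 (-4.68 to -3.75) without the introns crossed by Eif3j. With contigs of at most 400 nt the Spg11 value was -5.35. That choice leaves out the 341 dendrite reads of intron 35 but keeps the 382 soma reads of the same intron, so the lists are not treated alike. In the rat only Spg7 and Spg11 were listed in both dendrites and somas, and neither reached 2-fold, while 47.1% of the 2166 genes in both lists were at least 2-fold higher in dendrites, 32.3% at least 2-fold lower, and the median was 0.73 on the log2 scale. The log2 fold was 0.38 for Spg7 (-1.58 to 2.17, from 13 reads in all) and 0.61 for Spg11 (0.42 to 0.81), both below that median.

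Between BAT cells and cardiomyocytes, 3 of the 5 genes listed in both were at least 2-fold higher in BAT cells. These were Spast (7.16-fold, log2 2.84, interval 2.27 to 3.47), Spg7 (7.02-fold, log2 2.81, 2.46 to 3.18) and Atl1 (3.11-fold, log2 1.64, 1.18 to 2.11). With contigs of at most 400 nt the log2 fold of Spast was 1.29, and with reads counted on every contig it was 4.24 for Spast and 2.87 for Atl1. Atl3 was at a log2 fold of 0.02 (-0.19 to 0.23). Spg11 was lower in BAT cells (log2 -4.53, -4.63 to -4.43). That value rests on intron 35: from the introns that Eif3j does not cross it was 7.65 (6.10 to 9.94, 885 against 3 reads), the opposite direction. Among all 5442 genes in both lists 43.5% were at least 2-fold higher in BAT cells and 37.1% at least 2-fold lower, with a median of 0.32.

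Of the 109 annotated introns of the 6 mouse genes, 33 (30.3%) were listed in at least 1 mouse list, against 31.0% of the 140682 annotated introns of 11871 listed mouse genes. Their median length was 3223 nt, against 933 nt for the introns that were not listed, and over all those genes it was 2568 nt against 1055 nt. More than 1 mouse list held 19 of the 33, which is 57.6% (Wilson interval 40.8 to 72.8), against 39.5% of the 46599 introns of all genes. These shares are not like for like. Introns of genes in only 1 list cannot be shared, while 5 of the 6 genes were in all 4 mouse lists, as were 24.6% of all mouse genes. The interval also treats the introns of a gene as independent. Contigs of different lists overlapped in 11 of the 19 introns, against 64.5% of all introns in more than 1 mouse list. The 8 introns without a shared base were intron 5 of Atl1, intron 6 of Atl2, intron 8 of Atl3, introns 1 and 15 of Spast and introns 2, 3 and 16 of Spg7.

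**Figure D4:**
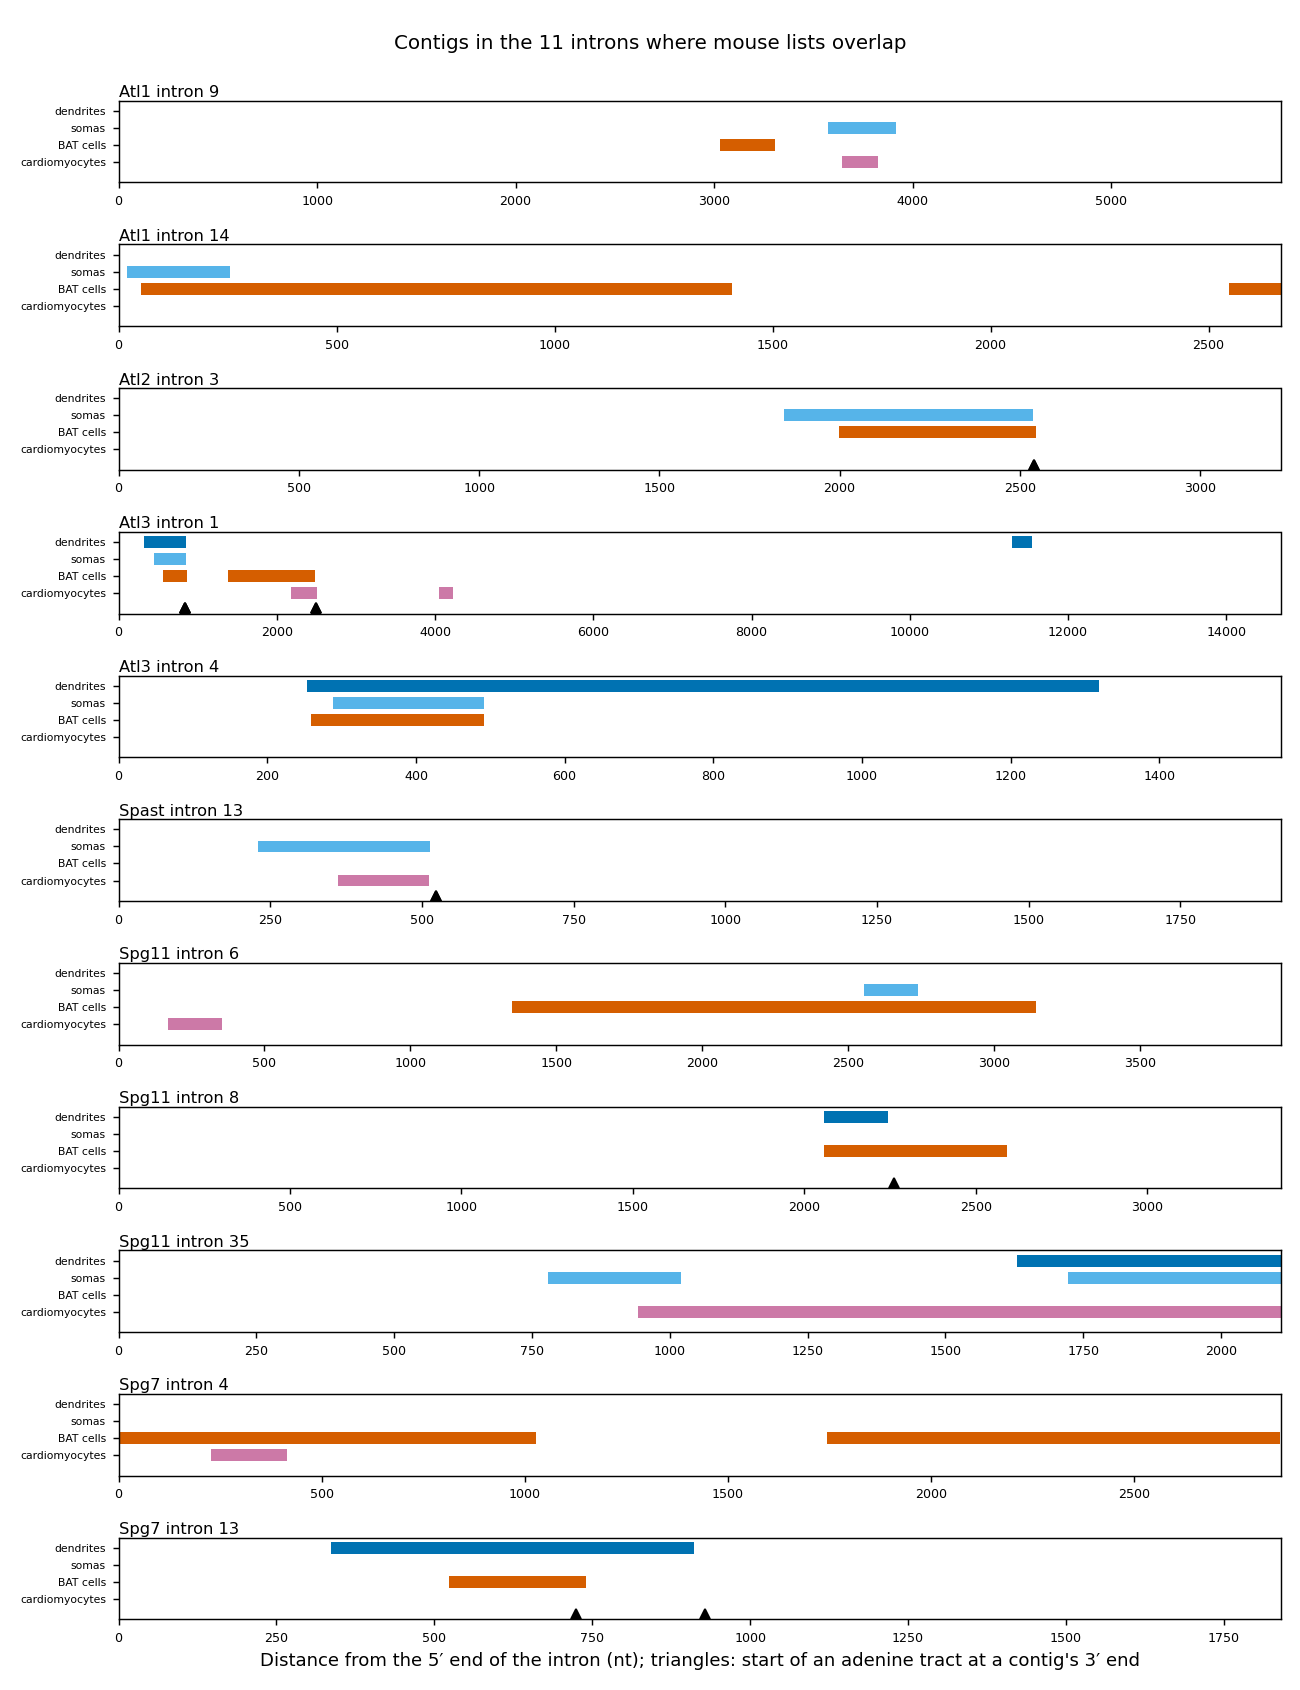
Contigs of the 4 mouse lists in the 11 introns where contigs of different lists overlap, as the distance in nt from the 5′ end of the intron; triangles mark the start of an adenine tract at the 3′ end of a contig. In Atl2 intron 3 and Spast intron 13, and at the first tract of Atl3 intron 1 (dendrites, somas and BAT cells), contigs of different lists start apart and end near the same tract, and in Spg11 intron 35 a contig of each of 3 lists reaches the end of the intron, while a further soma contig ends before it.

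The amplification starts from a poly(T) primer, which pairs with adenines, so the bases around the contig ends were searched for runs of adenine on the strand of the gene. Of the 72 mouse contigs of the 6 genes, 15 had a tract of at least 10 adenines within 30 nt of their 3′ end (20.8%, Wilson interval 13.1 to 31.6), against 12.1% of the 97721 contigs of all genes. By list it was 4 of 14 contigs in dendrites (28.6%, against 11.4% of all), 5 of 29 in BAT cells (17.2%, against 8.45%) and 3 of 10 in cardiomyocytes (against 14.6%), and 3 of 19 in somas (15.8%, against 22.0%). The Wilson intervals of these shares overlapped, and no difference between lists was tested. The 15 ended at 10 different tracts of 11 to 26 adenines in 7 introns. In 8 the contig ended in the tract or just past it, with 5 to 25 adenines inside, and in 7 it ended 3 to 19 nt before the tract. None of the 72 had such a tract at the 5′ end, where 0.61% of all contigs had one. A thymine tract stood at the 5′ end of 7 contigs (9.7%), against 10.1% of all. Within 300 nt downstream of the 14 dendrite contigs, 3 tracts were found (21.4%, interval 7.57 to 47.6), against 8.08% of all dendrite contigs, and with at least 12 adenines 1 (7.14%), against 5.70% of all. Contigs of different lists that end at one tract are not independent. The part of priming at these tracts in the reads was not tested.

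**Figure D5:**
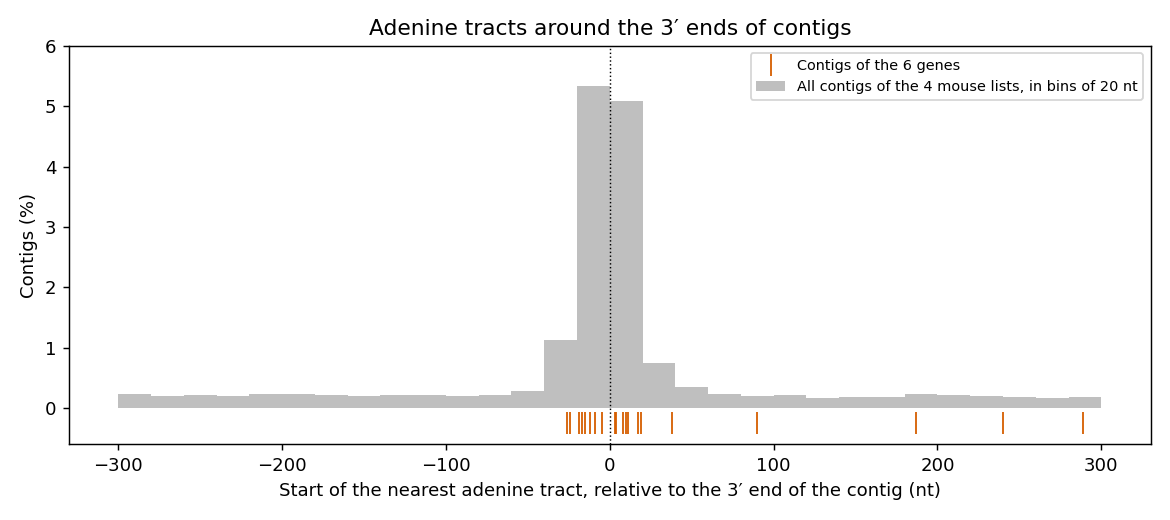
Distance in nt from the 3′ end of a contig to the start of the nearest adenine tract, for all contigs of the 4 mouse lists as the percent of contigs in bins of 20 nt (grey) and for the contigs of the 6 genes as ticks; negative values lie inside the contig. For all genes and for the 6 the tracts gather within about 20 nt of the 3′ end.

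Long contigs were most common in BAT cells, where 16 of 29 contigs of the 6 genes were over 400 nt (55.2%, against 34.02% of all BAT contigs), while in cardiomyocytes it was 1 of 10 (against 36.3% of all). Ends of introns were reached by 12 of the 72 contigs (16.7%), 8 at the 3′ end and 4 at the 5′ end of the intron, against 21.3% of all contigs. The B1 word TTTAATCCC was present on either strand in 16 contigs (22.2%), against 9.61% of all contigs and 10.3% of contigs of like length (within 10%). These lay in intron 4 of Atl3 (contigs of 3 lists), introns 1 and 13 of Spast, introns 2, 3, 4, 6, 13 and 16 of Spg7 and introns 8 and 35 of Spg11. The word GATTTAGCT, from the ID family of repeats, was in 2 contigs, those of Spast intron 1 and Spg7 intron 4 in BAT cells, against 0.307% of all contigs and 0.324% of contigs of like length. Neither word contains the other, the Spg7 contig held both, and a match is a description of the sequence only. None of the sequence of the rat contigs was read.

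Among 70 further genes tied to the same cellular machinery or to spastic paraplegia, 42 were listed by symbol in mouse dendrites (60%, against 69.0% of the genes of the mouse lists), 25 in mouse somas (35.7%, against 47.3%), 43 in BAT cells (61.4%, against 82.0%) and 27 in cardiomyocytes (38.6%, against 49.8%). In the rat it was 26 in dendrites (37.1%, against 78.5%) and 19 in somas (27.1%, against 59.4%). The shares over all genes leave out genes that were in none of the lists of a species, which the 70 include. Of the listed ones, 9 (21.4%), 6 (24.0%), 24 (55.8%), 10 (37.0%), 6 (23.1%) and 11 (57.9%) had a high intron as defined above, against 23.5%, 18.7%, 40.2%, 42.9%, 15.8% and 30.4% of all listed genes in the same order of lists. The lists carry older symbols for some genes. With RefSeq synonyms and transcripts added, a step chosen after seeing the data, 43, 27, 45, 28, 26 and 20 of the 70 were listed. Of the 16 genes that shape the endoplasmic reticulum, between 5 (cardiomyocytes) and 11 (mouse dendrites and BAT cells) were listed. Rtn3, a reticulon of endoplasmic reticulum tubules, had the most reads of the 70 in mouse dendrites (477 RPM), and Reep3, a receptor expression enhancing protein of the same membrane, in cardiomyocytes (1498 RPM) and rat somas (2462 RPM). In mouse somas it was Kidins220, a neuronal scaffold protein (5014 RPM), in BAT cells Vps4b, an AAA ATPase that takes apart ESCRT-III (1424 RPM), and in rat dendrites Fign, which encodes the microtubule severing enzyme fidgetin (538 RPM).

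Counts for the single groups follow in the order mouse dendrites, mouse somas, BAT cells, cardiomyocytes, rat dendrites and rat somas, and the genes named in this paragraph were chosen after their values were seen. Counts are by current symbol. Of the 7 severing ATPases and relatives of spastin, 4 were listed in mouse dendrites, 3 in mouse somas, 5 in BAT cells, 3 in cardiomyocytes, 4 in rat dendrites and 1 in rat somas. Of the 3 ESCRT-III partners of spastin, Chmp1a was listed by symbol in mouse dendrites (31.1 RPM), and Ist1 under an older symbol in BAT cells (4.82 RPM) and cardiomyocytes (182 RPM). Of the 4 genes for mitochondrial proteases and a chaperone, 3, 2, 3, 3, 2 and 1 were listed in the same order. Afg3l2, the partner subunit of paraplegin, had the most reads of these in each mouse list, from 54.7 RPM in cardiomyocytes to 315 RPM in mouse somas. Of the 5 genes around adaptor complex 5, the partner of spatacsin, only Zfyve26 was listed by its current symbol, in mouse dendrites (277 RPM), BAT cells (46.7 RPM), cardiomyocytes (17.3 RPM) and rat dendrites (451 RPM). Under older symbols, Ap5m1 was listed in mouse dendrites (35.6 RPM), mouse somas (6.47 RPM) and rat somas (413 RPM), Ap5s1 in mouse somas (3.23 RPM) and Ap5z1 in BAT cells (24.8 RPM). Of the 4 subunits of adaptor complex 4, 3, 1, 3, 2, 2 and 1 were listed, of the 3 kinesins 2, 2, 2, 2, 2 and 1, of the 11 genes of lipid metabolism 8, 4, 8, 6, 4 and 2, and of the 17 other spastic paraplegia genes 9, 6, 10, 5, 3 and 5.

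The genes most like Atl1, Atl3, Spast and Spg7, which were in all 4 mouse lists, were found among the genes that were also in all 4 by the Euclidean distance of log2(RPM + 1). They were Klhdc2 (0.77) and Serinc5 (0.88) for Atl1, and Rnf130 (0.79) and Prpf6 (0.85) for Atl3. For Spast they were 1500009L16Rik (0.87) and Ksr1 (0.87), and for Spg7 Sf3b2 (0.79) and P2rx4 (0.96). Each likeness rests on 4 pooled values.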

How the data were processed

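Intronic contigs were analysed from 6 CIRTs lists, each made by the authors from the pooled libraries of a condition (26 libraries by the labels). Per the study's methods, RNA was amplified from poly(T) primers without strand information, paired reads were aligned with RUM, and reads within introns were clustered into contigs. The submitters' processing notes name the builds mm9 and rn4. The values are read counts for each transcript and intron, as deposited by the authors, repeated on every contig of an intron and used here 1 time. Libraries were pooled before deposit, so grouping was by list and no test between groups was made. The lists hold 3086576 (mouse dendrites), 1855447 (mouse somas), 17858440 (BAT cells), 12201042 (cardiomyocytes), 1007530 (rat dendrites) and 2094541 (rat somas) reads.

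Reads per 1000000 listed intronic reads were computed with exact Poisson intervals, folds with exact binomial intervals and shares with Wilson intervals (95%, counting error only), in Python 3.11.15 with pandas 2.3.3, numpy 2.4.6, scipy 1.17.1 and matplotlib 3.10.9. Contig ends were set 1 base beyond the deposited stop, since with that shift 12100 contigs met an annotated intron end and without it 6. Sequences and exons were read from NCBIM37 with GENCODE annotation, and no rat genome was used. Scripts were tested on simulated data. The members and gene lists were chosen with earlier results of these data known. The introns named were those with the most reads in each list, with at least 8 on the log2 scale of reads or in more than 1 mouse list; other genes were named for the most reads among the pathway genes or the smallest distance to a member, and the exceptions are stated with their values. Alternatives covered scaling, read minimum, fold, contig length, repeated reads, older symbols (of the 6 genes and, added later, of the pathway genes), tract length and place, overlap and the Spg11 introns that Eif3j crosses. The genes most like Atl2, which was not listed in cardiomyocytes, and most like Spg11 are not reported here.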

Additional observations from a re-analysis of the deposited data

Results flagged for a closer look

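Spg11 stood on opposite sides in the rat and the mouse: its intronic level in dendrites over somas was -1.97 on the log2 scale in the mouse and 0.61 in the rat. Each value comes from pooled lists, and the difference between the species was not tested. The mouse value includes introns crossed by the last exon of Eif3j, and without them it was -4.20. Relative to the median of all genes in both rat lists, the rat value was -0.12. All 522 rat soma reads and 102 of the 384 rat dendrite reads lay in intron 37, whose neighbouring genes were not analysed. Without that intron no rat soma reads remain, and no rat fold can be given.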

How the results depend on the processing

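No paired analysis was possible because each list pools its libraries, and for the same reason no library could be left out. Over all alternatives, 70 of the 94 recomputed counts and shares stayed within 1.5 times the reported value, and 24 moved further. Of 61 recomputed folds of single genes, 36 stayed within the counting interval, 22 moved and 3 reversed a difference of at least 2-fold. A further 8 values changed sign from a reported fold under 2-fold: Spast in mouse dendrites over somas (1.52 with contigs of at most 400 nt), Spg11 in the rat (-0.12 under median scaling), Spg7 in the rat under 3 alternatives (-0.36 to -0.01) and Atl3 in BAT cells over cardiomyocytes under 3 alternatives (-0.30 to -0.03). With contigs of at most 400 nt, the log2 fold of Atl3 in mouse dendrites over somas reversed to -0.17 and that of Spg11 in BAT cells over cardiomyocytes to 3.25, so that 0 genes in place of 1 were lower in BAT cells. Without the introns crossed by Eif3j, an alternative chosen after seeing the data, the latter was 7.65. The number of genes at least 2-fold higher in mouse dendrites fell from 2 to 1 under median scaling, with a total without the 100 introns with the most reads, with contigs of at most 400 nt and at 4-fold. With contigs of at most 400 nt the 1 gene was Spast, since Atl3 reversed and no dendrite intron of Spg7 was left. For these folds the limit was applied to dendrites too, while the study sets it for whole cells only. With a minimum of 7 in place of 8 on the log2 scale of reads for a high intron, 2 genes passed in mouse somas, 5 in BAT cells and 2 in rat somas. With a minimum of 9, 0 passed in mouse dendrites, mouse somas and BAT cells, 1 in cardiomyocytes and 1 in rat dendrites. With contigs of at most 400 nt, 1 passed in BAT cells and 1 in cardiomyocytes, Spg11 being lost in both. At least 64 reads in an intron left 3 listed genes in mouse somas and 2 in cardiomyocytes, and 16, 32 or 64 reads left 3 in rat dendrites. The genes in all 4 mouse lists fell from 5 to 3 at 16 reads and to 2 at 32 reads, and the introns in more than 1 mouse list from 19 to 9 at 16 reads. Adenine tracts downstream of dendrite contigs fell from 21.4% to 7.14% with at least 12 adenines (5.70% of all dendrite contigs). Beyond the causes stated here by the construction of an alternative, the cause was not tested. Pooling leaves the spread between libraries unknown, and values from fewer than 10 reads have wide intervals.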
